A study of Zea mays with 48 samples.

Results

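A set of 182 genes, of 23753 in the deposited count table, was followed through roots of maize (inbred line B73). Its members were chosen by their measured levels: an average of at least 3 CPM (reads of a gene relative to its library's total) in the 48 h mock, at least 1 unit higher there than at 0 h on the log2(mean CPM + 1) scale, no overlap between the 3 mock and the 3 0 h libraries, and a 48 h tunicamycin level within 0.5 units of the mock. The rule was meant to find genes whose level rises as seedlings get older, whether or not the drug is present. The intermediate times, which the rule did not read, showed no steady rise under tunicamycin. In 97 of the 182 genes (53.3%) the 3 libraries of 12 h all lay below those of 3 h, where 12.8% of all genes showed this. At or above their 48 h mock level stood 86 genes at 3 h and 5 at 12 h. The rule used that mock level, so these 86 and 5 are description only. These times have no mock, so the course in untreated roots is not known. The members are therefore called here the 182 genes, or genes higher in the 48 h mock than at 0 h, without reference to age.

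The groups are seedlings labelled 7 days old and exposed for 0, 3, 6, 12, 24, 36 or 48 h to 5 µg/ml of tunicamycin, and seedlings kept for 48 h with a mock treatment. What the mock contained, and how many roots went into a library, was not given by the labels. Each group holds 3 libraries, numbered I, II and III, sequenced on lanes 6 and 7, and the series' design text calls them biological replicates. Only 48 h has a mock of its own, so drug and time since the start cannot be told apart at 3 to 36 h. Sample titles and library names give different times to some lanes, and samples were grouped by library name, as the columns of the count table are.

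Tunicamycin stops the first step of N-linked glycosylation. Glycoproteins then fail to fold in the endoplasmic reticulum, and plant cells respond through the unfolded protein response, in which the membrane sensor IRE1 splices the messenger RNA of a bZIP transcription factor. A growing seedling root also changes without any drug, as cells leave the tip, elongate and differentiate. The identifiers in the files could not be paired with gene names, so no function can be given to any of the 182 genes, and no gene list or root cell type marker could be counted among them. In RNA from whole roots, fewer cells that use a gene and less RNA of it per cell cannot be told apart.

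Depth ranged from 7701856 to 38577551 reads per library (median 24966395). In most groups libraries I and II lay closer to each other than to library III. The chi-square per gene between libraries I and II, which is about 1 for pure sampling noise, was 2.18 at 0 h, 3.13 after 3 h, 3.77 after 6 h, 6.51 after 12 h, 10.7 after 36 h and 5.03 in the mock, and it was larger at 24 h (42.8) and at 48 h of tunicamycin (22.5), whereas between libraries I and III it was 36.8 to 74.2 over all 8 groups. Libraries I and II therefore differed by more than sampling noise and were counted separately, with their sum as an alternative. If they share a source that library III does not, the number of independent samples per group is smaller than 3 and the p-values below are too small.

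The values that chose the genes are given as description only. Mean levels of the 182 genes ran from 3.11 to 1873 CPM in the mock (median 24.1) and from 0.166 to 721 CPM at 0 h (median 7.93). In the mock, 49 genes averaged under 10 CPM, 100 averaged 10 to 100 CPM and 33 averaged 100 CPM or more. The difference of mock from 0 h had a median of 1.32 log2 units and a highest value of 4.64, and it was under 1.5 units in 122 genes and at least 2 units, a 4-fold change, in 21. The 48 h tunicamycin level lay above the mock in 98 genes and below it in 84, with a median difference of 0.05 and quartiles of -0.19 and 0.26. Just inside the bounds of the rule stood a gene just over 1 unit above 0 h and one 0.499 units from the mock, and just outside stood genes at 0.997 and 0.503 units.

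The rule asks for no overlap of libraries and is not a statistical test. Of the 182 genes, 38 passed edgeR's quasi-likelihood test as higher in the mock than at 0 h at a Benjamini-Hochberg adjusted p below 0.05, where 0.922% of all genes did. No member passed in the comparison of 48 h tunicamycin with the mock, in which 0.337% of all genes were called higher and 0.135% lower, and none reached an unadjusted p below 0.05. Both comparisons are those the rule used, and nothing is read from these counts. Before the filter on 48 h tunicamycin the rule found 254 genes, of which 46 lay more than 0.5 units above the mock under tunicamycin and 26 more than 0.5 units below it.

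Membership leaned on library III. When library III of 0 h was left out, 467 genes met the rule, among them 164 of the 182, and when library III of the mock was left out, 86 did, among them 64 of the 182. In the mock, the median member stood at 4.37 and 4.29 log2(CPM + 1) in libraries I and II and at 5.13 in library III. At 0 h it stood at 2.94 and 2.99 in libraries I and II and at 3.28 in library III. All 3 mock medians thus lay above all 3 medians of 0 h, as the rule requires, with the widest rise in library III.

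At 3 h of tunicamycin the median member stood at 4.41, 4.46 and 5.09 log2(CPM + 1), the values of libraries I to III in order, and at 6 h at 4.86, 4.91 and 4.29. At 12 h it stood at 3.65, 3.63 and 3.92, and at 24 h at 3.93, 3.86 and 4.29. For 36 h the 3 values were 3.74, 3.63 and 5.06, and for 48 h of tunicamycin they were 4.40, 4.22 and 5.01. The level was thus high at 3 and 6 h, low in all 3 libraries at 12 h, and at 36 h high in library III alone. The median of all genes stayed between 3.96 and 4.30 in every library.

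**Figure D1:**
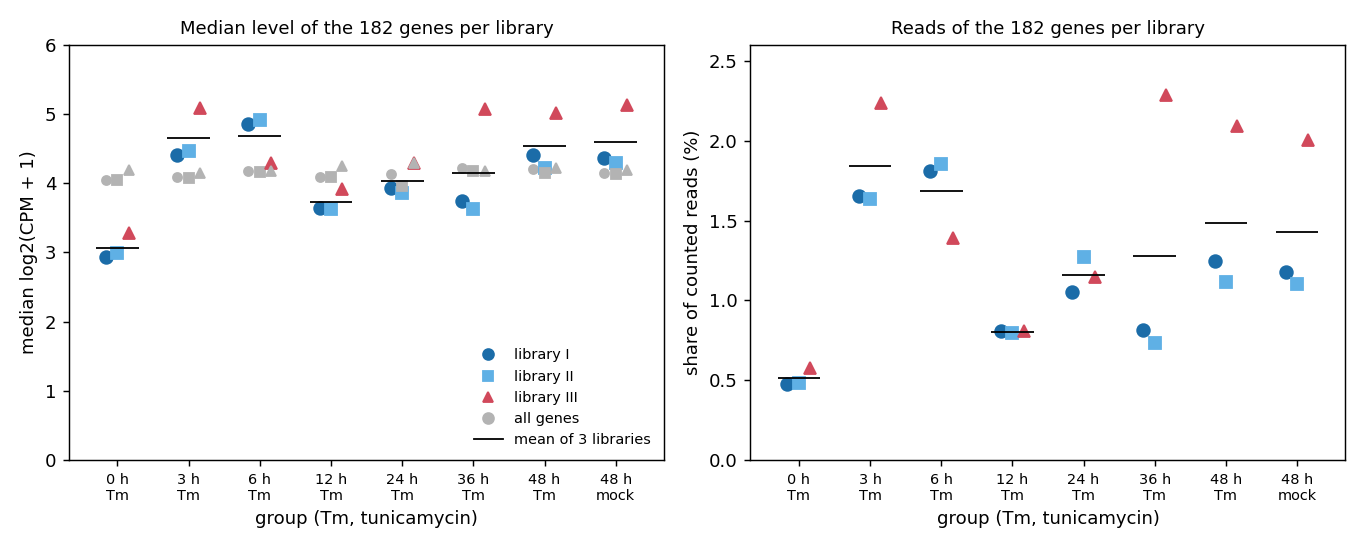
Left, median log2(CPM + 1) of the 182 genes in each of 24 libraries by group, with the median of all genes in grey; right, the percentage of counted reads assigned to the 182 genes. Points are libraries I, II and III, and lines are means of 3 libraries. All 3 libraries of 12 h lie at 0.798% to 0.811% of reads, below all libraries of 3 h (1.64% to 2.23%), and library III of 36 h, at 2.29%, lies far from libraries I (0.815%) and II (0.733%).

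Summed over the 182 genes, reads made up 1.65%, 1.64% and 2.23% of the counted reads at 3 h and 1.81%, 1.85% and 1.39% at 6 h. The share was 0.811%, 0.798% and 0.806% at 12 h and 1.05%, 1.27% and 1.14% at 24 h. At 0 h it was 0.479%, 0.486% and 0.579%. The 12 h libraries lay closer together in this sum than those of any other group, and they lay between 0 h and 3 h without overlapping either. For 48 h the shares were 1.25%, 1.11% and 2.09% under tunicamycin and 1.18%, 1.10% and 2.01% in the mock.

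Each gene was also placed between its own 0 h level, taken as 0, and its own 48 h mock level, taken as 1. Since the rule set both ends, these positions are description with no test. The median position was 0.967 after 3 h, 1.08 after 6 h, 0.434 after 12 h, 0.682 after 24 h and 0.871 after 36 h. The midpoint was reached or passed by 148 genes after 3 h, 169 after 6 h, 74 after 12 h, 129 after 24 h and 160 after 36 h. At 3 h, 50 genes stood at least 0.5 log2 units above the mock and 54 at least 0.5 units below it, so the early level was spread wide around that of the mock. No gene exceeded the mock by that much at 12 h, and 135 lay that far below it.

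Of the 5 times the rule did not read, 3 h held the highest mean of 69 genes, 6 h of 55, 36 h of 37 and 24 h of 21. None of the 182 genes had its highest mean at 12 h, and 120 had their lowest there. For 30 genes the lowest mean lay at 24 h, for 19 at 3 h, for 7 at 6 h and for 6 at 36 h. The same was not counted over all genes, so how far the members depart from genes in general is not shown here.

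**Figure D2:**
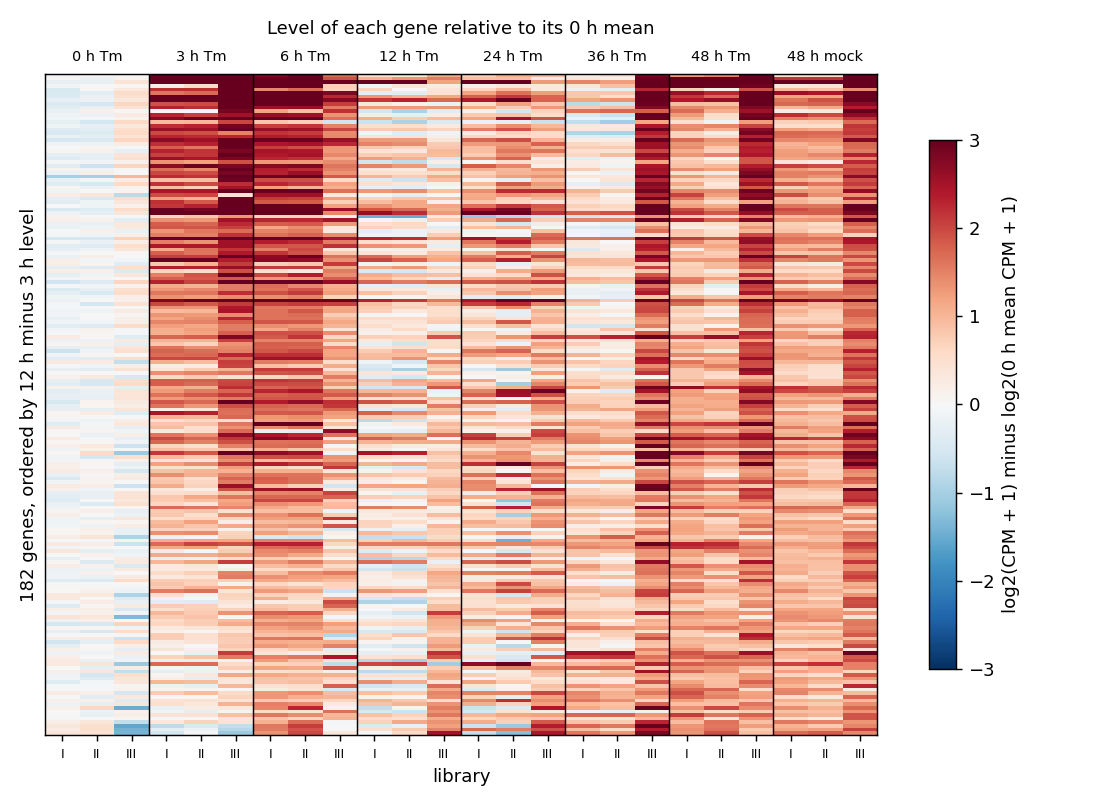
Level of each of the 182 genes (rows, ordered by the difference of 12 h from 3 h) in each library (columns), as log2(CPM + 1) minus the log2 of its 0 h mean CPM + 1; colours are clipped at -3 and 3. The upper rows are dark at 3 and 6 h, pale in most 12 h libraries and in libraries I and II of 36 h, and dark again in library III of 36 h and of both 48 h groups; the lowest rows are pale at 3 h.

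The tests compare the later tunicamycin times with 3 h, in libraries that took no part in choosing the genes. Library III was the highest for 84.1% of members in the mock, which the rule used, and for 79.7% at 3 h. Whether the choice thus carried over into the 3 h reference was not tested. These 4 comparisons share the 3 h libraries as reference and are not separate support for each other. All 182 genes entered the fit, which covered all 23753 genes and 8 groups. A gene was called higher or lower at an adjusted p below 0.05.

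At 12 h, 26 of the 182 genes fell relative to 3 h and 0 rose (edgeR's quasi-likelihood test), where 1.68% of all genes fell and 1.84% rose. Over the 182 genes the log2 fold change had a median of -0.91, with quartiles of -1.62 and -0.35, against 0.02 for all genes, and 161 of them had a negative value. At an unadjusted p below 0.05, 88 members (48.4%) were lower and 2 (1.10%) higher, where 9.01% and 9.85% of all genes were. DESeq2, which gave an adjusted p to 177 members, called 50 lower and 0 higher, where it called 3.22% and 3.45% of all genes. The CPM of the 12 h libraries all lay below those of 3 h in 97 members, 53.3% of them, where 12.8% of all genes showed this. The same held against 6 h, a comparison added after the course had been seen, in 90 members, where 18.9% of all genes did.

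The 26 genes that fell had log2 fold changes from -5.10 to -1.02 (median -1.90), and none had overlapping libraries. Their median mean level was 27.5 CPM at 12 h against 100.6 CPM at 3 h. In the other groups it was 17.1 CPM before the drug (0 h), 63.5 after 6 h, 35.9 after 24 h, 44.0 after 36 h, 45.2 after 48 h of tunicamycin and 41.0 in the mock. A fall from 3 h to 12 h is what picked these 26 genes, so nothing is read from their 3 h and 12 h levels. They stood still high at 6 h, and near their 48 h levels from 24 h on.

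The count of 26 rested on single libraries. Leaving out library I, II or III of 12 h left 3, 2 or 11 calls, leaving out the same libraries of 3 h left 15, 14 or 2, and there were 0 when libraries I and II were summed, a fit that called 2 of all genes lower. In these fits without 1 library, 1.10% to 8.24% of members and 0.472% to 1.42% of all genes fell. The median of the 182 genes stayed between -1.12 and -0.65 without any 1 of these libraries and was -1.03 with the sum. Among the 64 genes that also met the rule without library III of the mock, 7 fell (10.9%), where 1.68% of all genes did. The median log2 fold change of the 64 was -0.87.

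By the size of this difference, the 182 genes were divided at 0.5 units of log2(mean CPM + 1), a bound set after the course had been seen. At 12 h, 114 genes (62.6%) lay at least 0.5 units below 3 h, where 5.68% of all genes did. In 62 genes (34.1%) the levels were within 0.5 units, where 85.9% of all genes were. The other 6 genes (3.30%) lay at least 0.5 units above 3 h, a share below the 8.42% of all genes. The 114 genes had a median level of 3.17 at 0 h, then 5.32 after 3 h, 5.15 after 6 h, 4.03 after 12 h, 4.30 after 24 h, 4.65 after 36 h and 4.89 after 48 h of tunicamycin, with 4.91 in the mock. Over the same groups the 62 genes ran through 2.83, 3.55, 3.89, 3.33, 3.78, 3.87, 4.13 and 3.95. The division itself fixes how far 12 h lies from 3 h in each class, so nothing is read from that step. The 6 genes, at 4.34 at 0 h, 3.90 at 3 h and 5.70 at 6 h, kept between 5.43 and 6.13 from 12 h on.

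At 24 h, 19 of the 182 genes fell relative to 3 h and 4 rose, where 5.08% of all genes fell and 6.86% rose. Their median log2 fold change was -0.51 (quartiles -1.26 and 0.14) against 0.02 for all genes. In 68 members (37.4%) the 24 h libraries all lay below those of 3 h, as they did in 11% of all genes. The 19 fallen genes had a median level of 14.5 CPM at 24 h against 48.5 CPM at 3 h, and stood at 17.5 CPM after 12 h and 28.6 CPM after 48 h of tunicamycin. The 4 risen genes had 61.7 CPM at 24 h against 15.7 CPM at 3 h, and were already at 46.7 CPM at 6 h. The 24 h and 3 h levels picked the fallen and the risen genes, so nothing is read from that step.

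These counts too depended on single libraries. Leaving out library I, II or III of 24 h left 9, 4 or 20 fallen members and 4, 1 or 5 risen ones. Fallen were 4.95%, 2.20% or 11% of members, where 4.90%, 1.28% or 9.91% of all genes fell. Risen were 2.20%, 0.549% or 2.75% of members, where 7.73%, 1.81% or 11.4% of all genes rose. Without library I or III of 24 h the share of fallen members was thus near that of all genes. Leaving out those of 3 h left 12, 8 or 4 fallen members, and 2 risen ones each time. With libraries I and II summed, 0 were called either way. Library II of 24 h is the shallowest of the series and had 1 lane. Without library III of 3 h the share of fallen members was 2.20%, below the 2.82% of all genes. On lane 6, 37 members fell (20.3%) and 16 rose (8.79%), both below the shares of all genes, 23.5% and 21.8%, so the excess of fallen members seen with both lanes was not present there. On lane 7, where 24 h has 2 libraries, 2 members fell and 0 rose, where 0.749% of all genes fell and 0.501% rose.

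At 36 h, 7 of the 182 genes fell relative to 3 h and 6 rose, shares near those of all genes, of which 3.01% fell and 3.08% rose. The median log2 fold change was -0.29 (quartiles -0.91 and 0.33), against 0.01 for all genes. The 36 h libraries all lay below those of 3 h in 19 members, where 13.3% of all genes did, and all above in 23, where 24.8% did. Library III of 36 h stood apart: 163 members had their highest 36 h value in it, 89.6% against 35.8% of all genes, and its median member exceeded the mean of libraries I and II by 1.33 log2 units (all genes, -0.03). Without it, 69 members fell (37.9%) and 4 rose (2.20%), where 4.22% and 3.26% of all genes did, and the median log2 fold change was -0.97. Leaving out library I or II of 36 h left 2 or 1 fallen and 1 or 2 risen members. Fallen were 1.10% or 0.549% of members and 1.04% or 0.674% of all genes. Risen were 0.549% or 1.10% of members and 1.47% or 1.05% of all genes. Leaving out library I, II or III of 3 h left 4, 4 or 3 fallen and 0, 0 or 3 risen members. Of members, 2.20%, 2.20% and 1.65% fell, where 1.12%, 1.28% and 1.86% of all genes did. Of all genes, 0.989%, 0.981% and 1.80% rose, where 0, 0 and 1.65% of members did. With libraries I and II summed, 0 were called either way. With the library number as a block, since same-numbered libraries of 36 and 3 h deviated together, 20 members fell (11%) and 8 rose (4.40%), where 4.61% and 4.63% of all genes did.

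Library III also held the highest value of 79.7% of members at 3 h, where 44.8% of all genes had it there. In the mock the share was 84.1% against 46.7% of all genes, and at 48 h of tunicamycin 75.3% against 36.9%. The rule used both 48 h groups, so nothing is read from their shares. At 6 h the direction was opposite to that at 3 h, and library III was the lowest for 78.6% of members against 48.3% of all genes. At 12 and 24 h it was the highest for 114 and 91 members, and for 53.0% and 50.9% of all genes. Whether these libraries differ from I and II in harvest or handling is not stated by the labels.

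At 6 h, 0 of the 182 genes rose and 0 fell relative to 3 h (edgeR), where 0.0126% of all genes rose and 0.0421% fell. At an unadjusted p below 0.05, 18 members (9.89%) were higher and 6 (3.30%) lower, where 4.61% and 7.54% of all genes were. DESeq2 called 1 member higher and 0 lower, and 0.143% and 0.785% of all genes. The median log2 fold change was -0.03 (quartiles -0.37 and 0.44). The 6 h libraries all lay above those of 3 h in 26 members (14.3%) and below in 11 (6.04%), where 21.1% and 11.4% of all genes did. The spread of single genes was wide, from -2.40 to 2.04, so equal levels are not shown gene by gene.

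**Figure D3:**
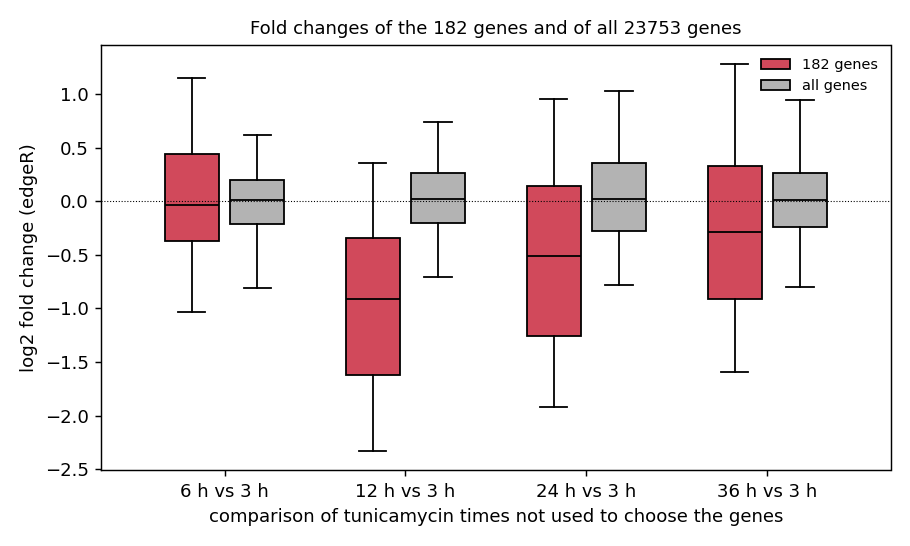
Log2 fold changes of the 182 genes (red) and all 23753 genes (grey) at 6, 12, 24 and 36 h against 3 h of tunicamycin. Boxes span the quartiles with the median as a line, and whiskers run between the 5th and 95th percentiles. The median of the 182 genes lies at -0.03, -0.91, -0.51 and -0.29, and that of all genes between 0.01 and 0.02.

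Length was recovered from the deposited RPKM values. The 182 genes had a median of 1869 bp, with quartiles of 883 and 3672 bp, against 3513 bp for all genes. All genes of up to 1869 bp, 6243 in number, had a median log2 fold change of 0.12 at 12 h against 3 h, and 1.35% of them fell. Among the members, the 91 of up to that length had a median of -1.14 and the 91 longer ones -0.78, with 11 and 15 called lower. The median of short genes as a whole was thus slightly above 0, and those of short and of long members were below it.

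Lanes were compared within libraries. The median member was higher on lane 7 than on lane 6 in 22 of the 23 libraries with both lanes, by 0.00579 to 0.555 log2(CPM + 1). The exception was library I of 24 h, with a difference of -0.08. The lane difference over all genes was not computed, so it is not shown to be particular to the members. In the mock, where the name of a library differs between its lanes, the difference was 0.00579, 0.0168 and 0.0967 in libraries I, II and III. The rule applied to each lane alone found 242 genes on lane 6 and 176 on lane 7, of which 146 and 130 were among the 182.

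The 254 genes that met the rule before the filter on 48 h tunicamycin can be set side by side at the times it did not read, with no test. The 46 genes that ended above the mock under tunicamycin had a median of 4.88 after 3 h, 4.90 after 6 h, 4.04 after 12 h, 4.30 after 24 h and 5.21 after 36 h. The 26 that ended below it had 3.26, 3.43, 2.04, 2.78 and 2.68 at these times. At 12 h, 114 of the 182 genes lay at least 0.5 units below 3 h, as did 20 of the 46 and 15 of the 26.

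The courses of 4 genes are shown, the 2 members with the widest rise and the 2 with the widest fall at 36 h against 3 h among called members whose libraries do not overlap and whose mean is at least 5 CPM. Reads of near-identical gene copies may be split among them, since the labels do not say how such reads were assigned.

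Zm00001d004730 (579 bp) had 139.3, 123.9 and 330.9 CPM at 36 h, libraries I to III in order, against 23.7, 29.6 and 24.1 CPM at 3 h. All libraries of 36 h lay above those of 3 h, with library III far above I and II. It rose by 2.87 ± 0.74 log2 units (SE; edgeR adjusted p = 0.027), and the call was lost without any 1 of the 3 h libraries (adjusted p = 0.105, 0.0888 and 0.0827) and without II or III of 36 h (0.0504 and 0.0727). At 24 h it had 25.8, 18.4 and 211 CPM, high in library III alone. In the 48 h mock it had 84.0, 70.9 and 113 CPM and at 0 h 51.5, 57.1 and 13.1 CPM.

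Zm00001d038382 (567 bp) had 61.4, 48.2 and 169.2 CPM at 36 h, against 26.2, 28.8 and 17.1 CPM at 3 h. It rose by 1.88 ± 0.53 log2 units (SE; edgeR adjusted p = 0.039) and lost its call without any library of 3 h (adjusted p = 0.0954 to 0.128) and without I or III of 36 h (0.0501 and 0.191). Its level at 24 h, 105.2, 95.2 and 125.7 CPM, was the most even of its later times and was also called against 3 h (log2 fold change 2.15, adjusted p = 0.0154, edgeR). In the 48 h mock it had 74.0, 77.2 and 136.0 CPM, and at 0 h 38.3, 46.1 and 11.3 CPM. At 6 h it had 96.3, 121.2 and 31.6 CPM. In both genes the mean was lowest at 3 h, although library III of 0 h lay below every 3 h library, and a low 3 h level is what picked them.

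Zm00001d053568 (606 bp) had 6.52, 5.47 and 10.7 CPM at 36 h, against 21.5, 20.9 and 33.7 CPM at 3 h. It fell by 1.82 ± 0.43 log2 units (SE; edgeR adjusted p = 0.0171), and the call was lost without library III of 3 h (adjusted p = 0.0613) or without I or II of 36 h (0.0728 and 0.0991). At 12 h, with 6.18, 5.97 and 11.8 CPM, it stood near its 36 h level and was also called against 3 h (log2 fold change -1.72, adjusted p = 0.0301, edgeR). In the 48 h mock it had 19.8, 17.4 and 11.4 CPM, and at 0 h 6.46, 6.09 and 7.57 CPM. Here library III of the mock was the lowest of its group, unlike in most members.

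Zm00001d037939 (14610 bp) had 26.2, 23.1 and 51.8 CPM at 36 h, against 99.0, 94.2 and 131.4 CPM at 3 h. It fell by 1.75 ± 0.33 log2 units (SE; edgeR adjusted p = 0.00456), a call kept without any 1 library of either time but lost with libraries I and II summed (0.246). It also fell at 12 h (38.0, 41.7 and 27.7 CPM; log2 fold change -1.63, adjusted p = 0.00967) and at 24 h (35.9, 18.8 and 32.3 CPM; log2 fold change -1.93, adjusted p = 0.00195, edgeR). At 6 h it stood at 98.4, 100.3 and 67.8 CPM, close to 3 h in libraries I and II. In the 48 h mock it had 45.6, 41.7 and 97.4 CPM and at 0 h 24.0, 23.3 and 34.4 CPM, and its 3 h mean of 108 CPM exceeded the means of both. A high 3 h level is part of what picked this gene and Zm00001d053568.

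**Figure D4:**
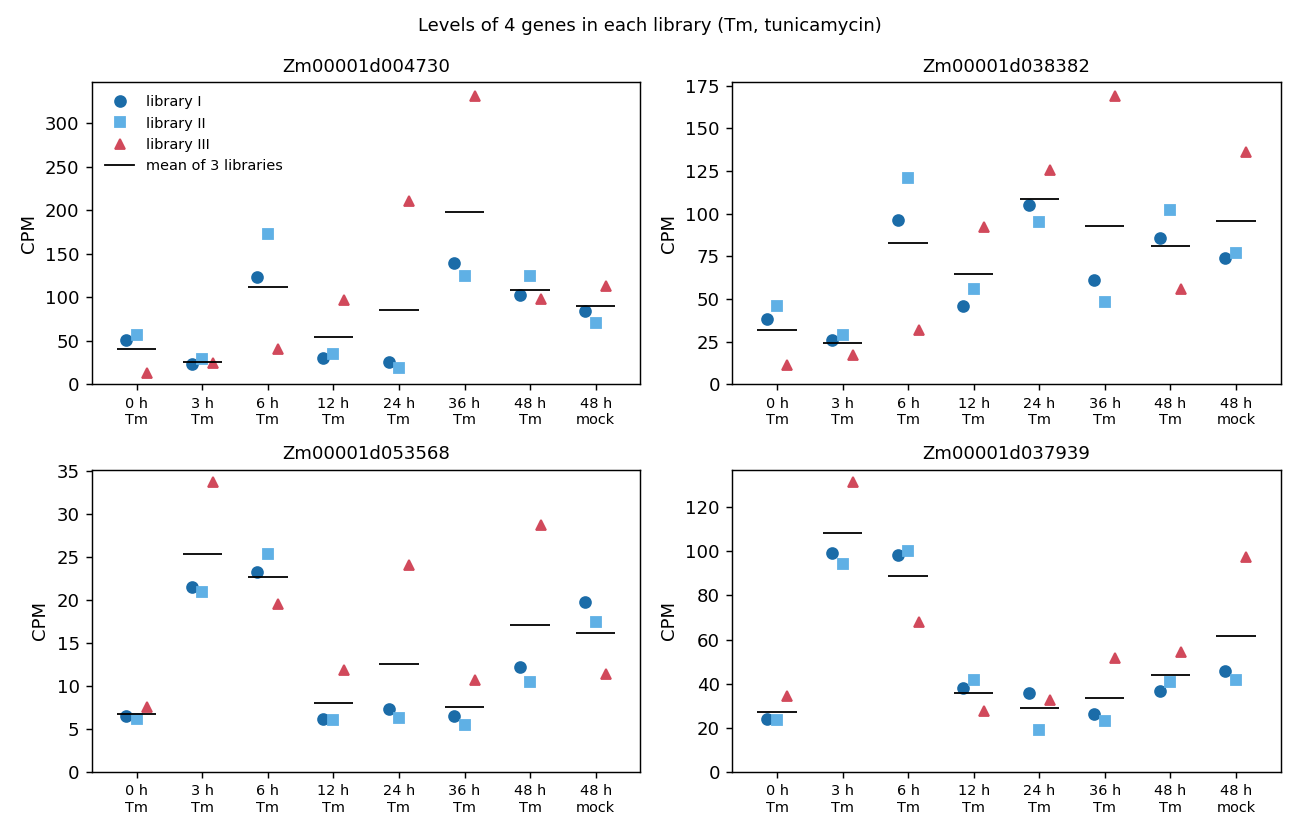
CPM of 4 of the 182 genes in each library by group, with libraries I, II and III as points and the mean of 3 as a line. The upper 2 genes are low at 3 h (17.1 to 29.6 CPM) and higher at 36 h (48.2 to 330.9 CPM); the lower 2 are high at 3 h (20.9 to 33.7 and 94.2 to 131.4 CPM) and lower at 36 h (5.47 to 10.7 and 23.1 to 51.8 CPM).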

How the data were processed

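The deposited table of whole-number counts gives reads per gene for 24 libraries, lanes summed; a second deposited table gives RPKM for 47 of 48 lane samples (lane 7 of library II of 24 h was not analysed here). Per the submitters' processing notes the tools include STAR, featureCounts and edgeR, without versions; the genome build, annotation and strand setting were not stated there. The lowest sum of counts of a gene over all libraries is 152. The labels do not say whether the libraries come from separate cultures beyond calling them biological replicates, so p-values may measure technical spread. The deposited RPKM, set against the counts, gave each gene's length and each lane's reads: 100% of lane values were whole within 0.01 reads and their sums differed from the counts by at most 0. CPM is the count over its column sum. The members, lists and comparisons were chosen with earlier results of these data known. None of the identifiers (0 of 23753) was found among 49888 genes of the RefSeq table, so the planned gene lists and cell type markers were not used.

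Counts were tested with edgeR 4.0.16 (R 4.3.3) by quasi-likelihood, with TMM scaling and 1 model of 8 groups, adjusted over all genes. The fit was checked on simulated data with independent libraries and 1 fixed spread for all genes. That check does not cover p-values where libraries I and II lie close to each other. Standard errors are the fold change over the root of F. DESeq2 1.42.0 was an alternative. Printed identifiers are, as fixed, 2 members of the largest rise and 2 of the largest fall, 36 h against 3 h, among called members with no overlap and a mean of at least 5 CPM. Deviations of same-numbered libraries from their group means correlated by 0.201 to 0.237 between 12 and 3 h and by 0.154 to 0.203 between 36 and 3 h, so the numbers pair those samples from the data, not from the labels; between 6 and 3 h and 24 and 3 h the lowest were 0.0728 and 0.0275.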

Additional observations from a re-analysis of the deposited data

How the results depend on the processing

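With size factors of the RLE type, or with genes of a mean of 1 CPM or more, every count of called members stayed within 1.5 times its main value. DESeq2 called 1 member higher at 6 h, 50 lower at 12 h, 31 lower at 24 h, and 11 higher and 20 lower at 36 h, each against 3 h. In that order these were 0.565%, 28.2%, 17.5%, 6.21% and 11.3% of its 177 members. Of all genes it called 0.143%, 3.22%, 7.36%, 5.13% and 5.26%. With only the groups compared in the model, 2 were higher and 2 lower at 6 h, 45 lower at 12 h, 1 higher and 8 lower at 24 h, and 10 higher and 4 lower at 36 h. In that order these were 1.10%, 1.10%, 24.7%, 0.549%, 4.40%, 5.49% and 2.20% of members. Of all genes that model called 0.257%, 1.30%, 1.61%, 0.429%, 0.413%, 5.14% and 4.65%. The share lower at 36 h thus lay below that of all genes. With libraries I and II summed, 0 members were called at 12, 24 and 36 h, and of all genes 2, 6 and 1 lower and 5, 29 and 1 higher. Lane 6 gave 48 lower at 12 h, 16 higher and 37 lower at 24 h, and 15 lower at 36 h; of all 23753 genes it called 949 lower at 12 h, 21.8% higher and 23.5% lower at 24 h, and 5.01% lower at 36 h, so at 24 h the shares of members (8.79% and 20.3%) lay below those of all genes. Lane 7 gave 10 lower at 12 h, 0 higher and 2 lower at 24 h, and 10 higher at 36 h, where it called 0.918% of all genes lower at 12 h, 0.501% higher and 0.749% lower at 24 h, and 1.55% higher at 36 h. The replicate block gave 1 higher at 6 h and 20 lower at 36 h. It moved no other count by over 1.5 times, 12 h with 37 lower and 24 h with 28 lower included. In that order these were 0.549%, 11%, 20.3% and 15.4% of members. Of all genes the block called 0.143%, 4.61%, 2.53% and 6.42%. Leaving out 1 library gave 2 to 15 lower at 12 h, and 1 to 5 higher and 4 to 20 lower at 24 h. At 36 h it gave 0 to 4 higher and 1 to 69 lower. At 12 h, 1.10% to 8.24% of members and 0.472% to 1.42% of all genes were lower in these fits. At 24 h, 0.549% to 2.75% of members and 1.81% to 11.4% of all genes were higher. Lower there were 2.20% to 11% of members and 1.28% to 9.91% of all genes. At 36 h, 0 to 2.20% of members and 0.981% to 3.26% of all genes were higher. Lower there were 0.549% to 37.9% of members and 0.674% to 4.22% of all genes. Counted only among the 64 genes that meet the rule without library III of the mock, an alternative chosen after seeing the data, 7 were lower at 12 h and 5 at 24 h. The number of genes meeting the rule ranged from 86 to 467 without 1 library, and was 172 with TMM-scaled CPM, 203 with a pseudocount of 0.5 and 233 with libraries I and II averaged. The 4 named genes kept their direction in every setting; 18 of their 56 alternative fits lost the call, 4 of them with libraries I and II summed (adjusted p = 0.246 to 0.328). The causes were not tested. With 3 libraries a group, of which I and II lie close, a difference that misses the threshold is not shown to be absent.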

Other observations

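Of the 182 genes, 27 have an identifier number within 10 of that of another member. For Zm00001d004730 there are 3 such members, with log2 fold changes of 2.64, 1.91 and 0.94 at 36 h against 3 h, none past the threshold (edgeR adjusted p = 0.0614 to 0.177), beside its own 2.87. Whether genes with close numbers are neighbours or near-identical copies was not stated by the labels, and whether they share reads was not tested.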
